A study of Mus musculus with 10 samples.

Results

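Mif, Snrpn and Wdr89 were followed in P19 cells, a mouse embryonal carcinoma line, after an siRNA against Larp1 (siLarp1) or a pool of scrambled siRNAs (siCtl). These 3 genes, of 13272 genes with kept reads, were chosen by their share of poly(A) tails shorter than 30 nt, which was higher after siLarp1 at 24 h although they encode no ribosomal protein. Values at 24 h are therefore a description, and tests were made at 48 h. A model at 24 h served only to order transcripts and to give the share called. Native RNA molecules were sequenced on nanopores, and every read carried its own estimate of the tail length. Each treatment had 3 libraries at 24 h after transfection and 2 at 48 h, the latter with a second transfection in between. All 10 libraries came from undifferentiated cells of wild-type genotype. Libraries are named by the numbers of the deposited table, 19, 21 and 22 at 24 h and 24 and 25 at 48 h, in both treatments. Which labelled replicate a library was is not stated, and the conditions without a time in their name were taken as 24 h because the others are marked 48. Kept reads are those on mRNAs, other than mitochondrial ones and pseudogenes, whose tail estimate passed quality control. Of 2042110 kept reads, 10876 were assigned to these genes, 7024 to Mif, 2515 to Snrpn and 1337 to Wdr89.

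Larp1 is an RNA-binding protein of mRNAs with a 5′-terminal oligopyrimidine (TOP) motif, a run of pyrimidines that starts with a C at the cap. TOP mRNAs encode ribosomal proteins and other parts of the translation machinery, and Larp1 is known to hold them in a stable state and to bind poly(A) and its binding protein. The poly(A) tail is added when the 3′ end of an mRNA is made, and its shortening in the cytoplasm usually comes before decay. Mif encodes macrophage migration inhibitory factor, a secreted cytokine with tautomerase activity. Snrpn encodes SmN, a core protein of spliceosomal snRNPs that is close in sequence to the SmB proteins encoded by Snrpb, and it is transcribed from the paternal allele of an imprinted region. Wdr89 encodes a protein with WD repeats. Rplp2, which enters below, encodes an acidic protein of the ribosomal P-stalk and is a TOP mRNA.

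Where the reads lay came first, because it decided what each gene's value could mean. Mif reads were assigned to the transcript ENSMUST00000038169.7 (6996 reads), a 544-nt mRNA of 3 exons on the minus strand at chr10:75859353-75860240 of mm10. The median Mif read began at base 32 and ended at base 541, so most reads spanned the mRNA. Snrpn reads were divided between ENSMUST00000059305.16 (2084 reads, 10 exons, chr7:59982495-60005111) and ENSMUST00000098402.4 (431 reads, 11 exons, chr7:59982502-60140219). These have different first exons and the same 3′ part, and reads of both ended at the same genomic base, before the annotated end. Wdr89 reads were assigned to ENSMUST00000062370.8, a 2979-nt mRNA of 2 exons on the minus strand at chr12:75630596-75669537, with a coding part from base 97 to base 1254. The median Wdr89 read, however, began at base 2217 and ended at base 2654, within the 3′ UTR.

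Bases 2200 to 2646 of the Wdr89 transcript, in 1 exon at chr12:75630929-75631375, matched bases 283 to 729 of the Rplp2 transcript ENSMUST00000084434.10 (chr7:141447370-141451585, plus strand) at 99.3% identity, with 3 mismatches over 447 nt. Of the 1337 Wdr89 reads, 1312 (98.1%) lay inside this stretch, allowing a margin of 30 nt at either end. Only 13 of 1337 began within or before the coding part of Wdr89. The 3′ ends are shown because they carry the likeness; each window is 30 nt of the mRNA, 5′ to 3′, from the GENCODE M21 transcripts (GRCm38), with the polyadenylation signal AATAAA in capitals.
Mif, chr10:75859356-75859385, minus strand: agccgggagaAATAAAtggtttataagaga
Snrpn, chr7:59983114-59983143, minus strand: tatagatAATAAAtacatagagcaattcaa
Wdr89, chr12:75630929-75630958, minus strand: ctgcaAATAAAgtctttttatgtatcttga
Rplp2, chr7:141451321-141451350, plus strand: ctgcaAATAAAgtctttttatgtatcttga
The Wdr89 and Rplp2 windows were the same in every base. Within 5 nt of the last base of the window ended 96.6% of the reads on the main Mif transcript and 92.4% of those on the main Snrpn transcript, so that in both genes the signal stood just before the tail. Among the transcripts of the 839 tested genes with a sequence, 69.1% held AATAAA on the mRNA strand in their last 50 nt.

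Past the last shared base the Wdr89 and Rplp2 sequences differed, and the 11 bases after it are in capitals here.
Wdr89, chr12:75630918-75630947, minus strand: gtctttttatgtatcttgaAAAAAAAAAAA
Rplp2, chr7:141451332-141451361, plus strand: gtctttttatgtatcttgaGTGGCCTTTAA
In Wdr89 they were a run of 11 A. The last aligned base lay within that run in 1069 of 1337 Wdr89 reads, before it in 97 and past it in 171. At the other end of the stretch, the windows below have the run of pyrimidines in capitals.
Wdr89, chr12:75631354-75631383, minus strand: aaagagCTTTTCgccgccggacgctgccga
Rplp2, chr7:141447644-141447673, plus strand: cgTCTTCCTTTCgccgccggacgccgccga
Most Wdr89 reads began soon after this run, and the plot of read positions shows how narrow both ends were. The mapping quality, a score of how unique an alignment is, was 0 or 1 in 86.4% of the Wdr89 reads, 34.0% of the Snrpn reads and 1.47% of the Mif reads, against 23.9% of all kept reads. On the main Rplp2 transcript 16.2% of the reads were at 0 or 1 and 65.1% at 10 or more. Most reads assigned to Wdr89 therefore cannot be told apart from reads of Rplp2, although most Rplp2 reads were placed with a higher score, and the label of Wdr89 as a gene outside the TOP mRNAs was not borne out by where its reads lay. Below, Wdr89 names the reads assigned to it, and Rplp2 is given beside it.

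**Figure D1:**
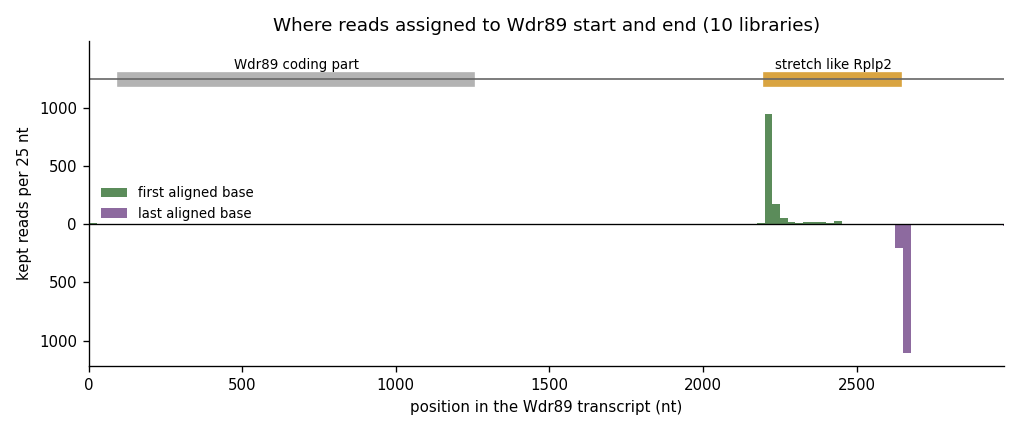
Kept reads per 25 nt (y axis) by position in the Wdr89 transcript (x axis, nt), with first aligned bases drawn upwards and last aligned bases downwards, all 10 libraries together. Starts pile up at the left edge of the stretch like Rplp2 (bases 2200 to 2646) and ends at its right edge, while the coding part (bases 97 to 1254) is almost empty.

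In Mif, 97.2% of the reads had a mapping quality of 10 or more. Sequences most like the Mif reads were processed pseudogenes such as Gm10169, alike over 348 nt of coding sequence at 99.1% identity; pseudogenes were left out of the kept reads. For Snrpn the nearest other protein-coding gene was Snrpb, alike at 80.9% over 687 nt. A barcode confidence of 0.9 or more was reached by 66.8% of the Mif reads, 86.8% of the Snrpn reads and 84.2% of the Wdr89 reads, against 87.0% of all kept reads.

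At 24 h the values that led to the choice of the genes were as follows, with no test. In Mif, tails under 30 nt made up 0.714% (7 of 980 reads), 1.29% (15 of 1161) and 1.40% (22 of 1569) in siCtl libraries 19, 21 and 22. In the siLarp1 libraries of the same numbers they made up 1.65% (7 of 425), 2.52% (12 of 477) and 3.54% (21 of 594). Every siLarp1 library was above every siCtl library, and the means were 1.14% ± 0.369 and 2.57% ± 0.945 (SD, n = 3). In 6.22% of the 1945 genes with at least 100 kept reads at 24 h the siLarp1 libraries lay above the siCtl libraries without overlap. Over all kept reads together the share was 2.22%, 2.42% and 2.15% in siCtl libraries 19, 21 and 22. It was 2.66%, 3.22% and 2.63% in the siLarp1 libraries, also higher without overlap, so the direction was not particular to the chosen genes.

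Snrpn had the highest shares of the 3 genes at 24 h. They were 2.02% (8 of 396), 1.32% (6 of 453) and 2.96% (16 of 540) in siCtl libraries 19, 21 and 22. They were 4.52% (7 of 155), 6.10% (10 of 164) and 4.44% (8 of 180) in the siLarp1 libraries. The groups did not overlap, with means of 2.10% ± 0.822 and 5.02% ± 0.934 (SD, n = 3).

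Wdr89 rested on 8 short tails at 24 h, and its groups overlapped. There was none among 169 and 215 reads of siCtl libraries 19 and 21, and 1 among 252 reads of library 22. The libraries without a short tail allow shares of up to 1.78% and 1.40%. Here and below such limits are 3 divided by the number of reads. The 95% Wilson upper limits, drawn in the plot, are higher, at 2.22% and 1.76%. In siLarp1 there was none among 62 reads of library 19, which allows up to 4.84%, and there were 4 among 111 reads of library 21 and 3 among 104 of library 22. The 4 short tails of siLarp1 library 21 were 26.2, 27.0, 29.1 and 29.2 nt long and the 3 of library 22 were 16.7, 26.8 and 29.6 nt long, so that several lay just under the limit of 30 nt. All 12 short Wdr89 tails of both times were on reads inside the stretch like Rplp2, and none of the 25 reads outside it was short. With 12 short tails among 1312 reads inside, so few reads outside cannot show a difference. Pooled over libraries, the share was 0.157% in siCtl (1 of 636, 95% Wilson interval 0.0278% to 0.885%) and 2.53% in siLarp1 (7 of 277, 1.23% to 5.12%). Such intervals cover counting error only.

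Rplp2 itself was at 0.549%, 0.489% and 0.420% in the siCtl libraries 19, 21 and 22 and at 0.543%, 1.05% and 1.21% in the siLarp1 libraries. In Rplp2, siLarp1 library 19 (3 of 552 reads) lay within the range of the siCtl libraries, and libraries 21 and 22 lay above it. In Wdr89 the same library had no short tail among 62 reads, which allows up to 4.84%, so its place cannot be compared. Pooled, its share was 0.477% (22 of 4611) in siCtl and 0.964% (18 of 1868) in siLarp1. The difference between Rplp2 and Wdr89 was not tested.

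A quasi-likelihood logistic model was used at 24 h only to order single transcripts. It used the values that had chosen the genes, so their passing it is no support. The threshold, an adjusted p under 0.05, was passed by 30 of 1812 transcripts (1.66%), all in the direction of more short tails. Apart from those named as ribosomal protein genes and their copies, 4 transcripts lay inside: Mif, the main Snrpn transcript, Ftl1 (ferritin light chain) and Wdr89, which was the last of the 30. Wdr89 counts here by its name only, since most of its reads cannot be told apart from those of Rplp2. Ftl1, just inside, had mean shares of 0.140% in siCtl and 0.869% in siLarp1. The next outside were Ebna1bp2 (4.16% and 17.8%), Bola2 (0.909% and 7.55%) and Atp5o (0.882% and 4.19%). Their differences in mean share were larger than that of Wdr89, which was 2.03 percentage points. The second Snrpn transcript was far outside, with 4 short tails among 217 reads in siCtl and none among 86 in siLarp1, which allows a share of up to 3.49%. The main Snrpn transcript had 26 among 1172 and 25 among 413. Since 99.1% of the reads on the second transcript had a mapping quality of 0 or 1, they cannot be told apart from reads of the main transcript. On the main transcript 20.5% of the reads were at 0 or 1 and 78.9% at 10 or more.

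**Figure D2:**
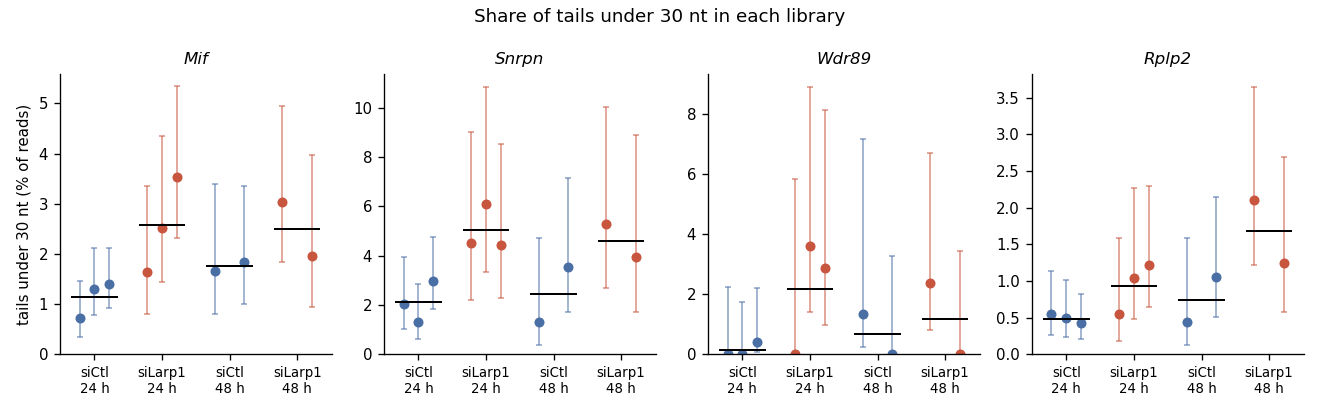
Share of tails under 30 nt (y axis, % of kept reads, linear, 1 scale per gene) in each library, with 95% Wilson intervals as bars, group means as black lines, siCtl in blue and siLarp1 in red. In Mif and Snrpn the siLarp1 libraries sit above the siCtl libraries at both times, while Wdr89 has 5 libraries at 0 and the widest intervals.

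The 48 h libraries were not used in the choice. In Mif the share under 30 nt was 1.67% (7 of 420) and 1.84% (10 of 544) in siCtl libraries 24 and 25, and 3.03% (15 of 495) and 1.95% (7 of 359) in siLarp1 libraries 24 and 25. Both siLarp1 libraries were above both siCtl libraries, library 25 by little. The fitted change was 0.55 on the log2 odds scale (SE 0.465, 95% interval -0.459 to 1.56, adjusted p = 0.609, quasi-likelihood logistic model), so the difference did not pass the test and a change in either direction was within the interval.

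Snrpn was at 1.32% (2 of 151) and 3.55% (7 of 197) in siCtl libraries 24 and 25 and at 5.26% (8 of 152) and 3.94% (5 of 127) in the siLarp1 libraries at 48 h. The groups did not overlap, but siCtl library 25 was closer to siLarp1 library 25 than to the other siCtl library. The fitted change was 0.86 (SE 0.622, 95% interval -0.493 to 2.21, adjusted p = 0.588). It did not pass the test.

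Wdr89 had 1 short tail among 75 reads and none among 114 in siCtl, and 3 among 127 and none among 108 in siLarp1 at 48 h. Libraries without a short tail allowed shares of up to 2.63% and 2.78%. The fitted change was 0.92 (SE 1.48, 95% interval -2.29 to 4.13, adjusted p = 0.780). Rplp2, with more reads, was at 0.440% and 1.05% in siCtl and at 2.11% and 1.25% in siLarp1, a fitted change of 1.07 (SE 0.579, adjusted p = 0.469).

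Mif and Snrpn thus belonged to the genes whose 2 siLarp1 libraries were both above the siCtl libraries at 48 h, as 27.0% of the 843 genes with at least 100 kept reads did, while 9.13% had both below. Over all kept reads together the share at 48 h was 2.96% and 2.82% in siCtl libraries 24 and 25. In the siLarp1 libraries it was 4.20% and 3.37%, likewise higher in both. The model called 4 of 823 genes at 48 h (0.486%), all higher in siLarp1 and all for ribosomal proteins. At an unadjusted p under 0.05, 87 genes were higher and 7 lower. The median fitted change was 0.49 over all 823 genes, 0.91 over 79 ribosomal protein genes and 0.33 over the others, beside 0.55, 0.86 and 0.92 in Mif, Snrpn and Wdr89. With 2 against 2 libraries the exact permutation test of 1 value a library (two-sided) cannot give a p below 0.333, and it gave 0.333 for Mif and Snrpn.

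**Figure D3:**
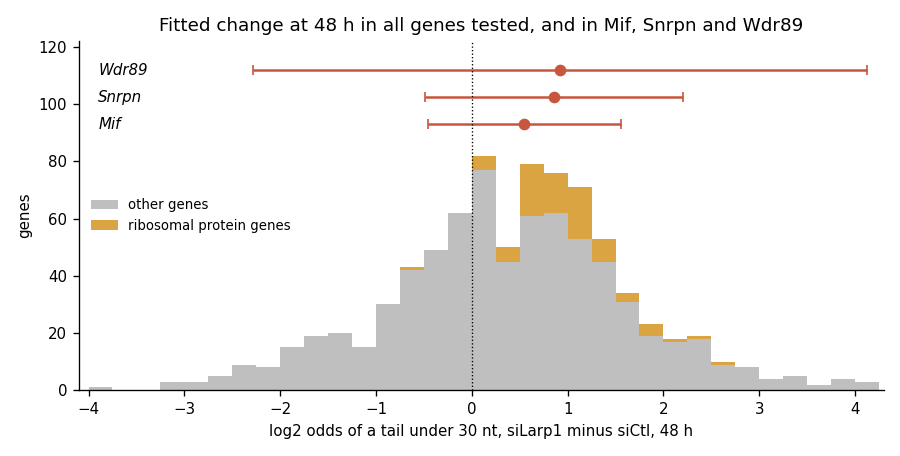
Number of genes (y axis) by fitted change in the log2 odds of a tail under 30 nt at 48 h (x axis, siLarp1 minus siCtl), for 823 genes with ribosomal protein genes in yellow; 3 genes above 4 are in the last bar, and red points with bars are the estimates and 95% intervals of the named genes. The intervals of all 3 include 0, and their estimates fall within the bulk of the genes.

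The 4 libraries at 48 h shared a pool that was sequenced in 2 runs, so that runs could be compared within libraries. In the first run Mif was at 1.67% and 1.52% in siCtl libraries 24 and 25 and at 3.57% and 2.26% in siLarp1. In the second run it was at 1.67% and 2.70% in siCtl and at 1.53% and 1.06% in siLarp1, with 94 to 148 reads a library. The fitted change was 0.93 in the first run (adjusted p = 0.577) and -0.65 in the second (adjusted p = 0.765). The direction for Mif was thus that of the first run only. In Snrpn the fitted changes were 1.24 (adjusted p = 0.603) and 0.41 (adjusted p = 0.835), the second on 33 to 58 reads a library. At 24 h each treatment was pooled on its own, and an effect of the pool cannot be told apart from one of the siRNA.

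The short tails were mostly close to the limit. In Mif at 24 h, 40 of 44 short tails in siCtl and 32 of 40 in siLarp1 were 20 to 30 nt long, and their medians were 26.5 and 24.0 nt. In Snrpn these were 23 of 30 and 22 of 25, with medians of 26.4 and 25.3 nt. No tail of either gene at 24 h was under 10 nt. Counted under 20 nt, the difference between siLarp1 and siCtl means at 24 h was 0.380 percentage points in Mif and 0.115 in Snrpn, against 1.43 and 2.92 under 30 nt. The Mif means under 20 nt were 0.111% in siCtl and 0.490% in siLarp1, on 4 and 8 reads. Those of Snrpn were 0.501% and 0.615%, on 7 and 3 reads, so both rest on few molecules.

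At 24 h the lower end of the tail distributions moved more than the median, as the plot of cumulative tail lengths shows. The median Mif tail at 24 h was 107, 108 and 105 nt in siCtl libraries 19, 21 and 22 and 101, 103 and 105 nt in the siLarp1 libraries, which overlapped. The lower end of the Mif distribution shifted more: the 10th percentile averaged 53.5 nt in siCtl and 46.0 nt in siLarp1, without overlap, and the 90th averaged 173 nt in both. The 10th percentile was lower in siLarp1 without overlap in 6.27% of the 1945 genes, and the 24 h contrast had chosen Mif, Snrpn and Wdr89. In Snrpn the 10th percentile averaged 45.2 and 40.7 nt, without overlap, and the median averaged 102 nt ± 6.31 and 99.4 nt ± 6.65 (SD, n = 3). The 10th percentile averaged 57.3 and 46.4 nt in Wdr89 and 60.6 and 54.7 nt in Rplp2, in both without overlap. In Wdr89 the median tails were 103, 105 and 99.5 nt in siCtl and 86.6, 98.7 and 99.0 nt in siLarp1, all lower, as in 5.76% of the 1945 genes. The lowest was siLarp1 library 19, which had no tail under 30 nt. Rplp2 medians were likewise lower in every siLarp1 library, with means of 107 nt ± 1.99 and 104 nt ± 2.34 (SD, n = 3).

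**Figure D4:**
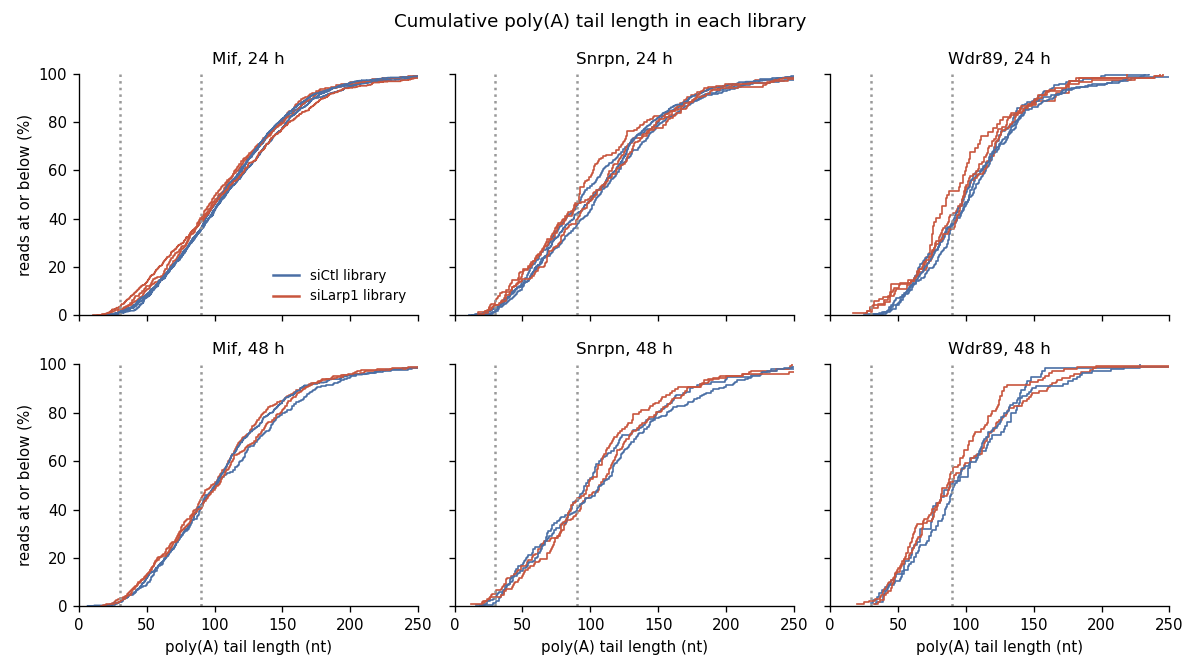
Cumulative share of kept reads (y axis, %) by poly(A) tail length (x axis, nt, shown to 250) for Mif, Snrpn and Wdr89 at 24 h and 48 h, 1 line per library, siCtl in blue and siLarp1 in red, with dotted lines at 30 and 90 nt. At 24 h the siLarp1 lines of Mif lie above the siCtl lines at the lower left and cross them at greater lengths, and 1 siLarp1 line of Wdr89 stands apart.

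The class from 30 to 90 nt, which the study calls the ~60-nt class, showed no common direction. In Mif at 24 h it held 34.7%, 34.4% and 34.7% of the reads in siCtl libraries 19, 21 and 22 and 38.8%, 37.1% and 35.4% in siLarp1, all higher, as in 5.14% of the 1945 genes. In Snrpn the means were 39.3% ± 3.96 and 39.2% ± 3.31 (SD, n = 3), and in Wdr89 37.5% ± 0.493 and 40.7% ± 9.78. At 48 h the fitted changes on the log2 odds scale were 0.026 in Mif (SE 0.148, adjusted p = 0.967), -0.15 in Snrpn (SE 0.256, adjusted p = 0.90) and 0.19 in Wdr89 (SE 0.301, adjusted p = 0.898). The groups overlapped in all 3 genes, whereas 9.73% of 843 genes had both siLarp1 libraries above and 28.6% both below. No gene of 843 passed this test, with 14 higher and 63 lower at an unadjusted p under 0.05, and the median fitted change of all genes was -0.18.

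The median tail at 48 h did not pass the test in any of the 3 genes either. It was 100 and 101 nt in siCtl libraries 24 and 25 and 97.7 and 102 nt in siLarp1 for Mif, a fitted difference of -0.82 nt (SE 4.68, adjusted p = 0.979, limma). For Snrpn it was 96.8 and 108 nt in siCtl and 107 and 98.9 nt in siLarp1, a difference of 0.39 nt (SE 6.84, adjusted p = 0.988). For Wdr89 it was 88.4 and 91.6 nt in siCtl and 88.4 and 86.7 nt in siLarp1, a difference of -2.60 nt (SE 6.63, adjusted p = 0.960). In 23.1% of 843 genes both siLarp1 libraries were above and in 12.1% both below, and the groups overlapped in these 3. None of 843 genes was called, with 34 longer and 13 shorter at an unadjusted p under 0.05, and the median fitted difference was 2.92 nt.

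Abundance, in reads per 1000000 kept reads (RPM), was compared next. Mif was at 3382, 3373 and 3706 RPM in siCtl libraries 19, 21 and 22 and at 3546, 3566 and 3782 RPM in siLarp1 at 24 h. At 48 h it was at 3726 and 3044 RPM in siCtl and 3054 and 2978 RPM in siLarp1. Groups overlapped at both times, and the fitted log2 change at 48 h was -0.13 (SE 0.104, adjusted p = 0.781, limma).

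Snrpn was at 1367, 1316 and 1275 RPM in siCtl and at 1293, 1226 and 1146 RPM in siLarp1 at 24 h, which overlapped. At 48 h it was lower in both siLarp1 libraries, at 937.8 and 1053 RPM against 1340 and 1102 RPM in siCtl, as were 20.4% of the 843 genes. The fitted log2 change was -0.27 (SE 0.156, adjusted p = 0.744).

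Wdr89 was at 583, 625 and 595 RPM in siCtl and at 517, 830 and 662 RPM in siLarp1 at 24 h. At 48 h it was at 665 and 638 RPM in siCtl and at 784 and 896 RPM in siLarp1, higher in both, as were 17.6% of the 843 genes, with a fitted log2 change of 0.36 (SE 0.173, adjusted p = 0.744). Rplp2 had groups that overlapped at 48 h, at 4037 and 3744 RPM in siCtl and 3511 and 3990 RPM in siLarp1. For every 100 Rplp2 reads there were 16.5 and 17.0 Wdr89 reads inside the stretch in siCtl and 21.8 and 22.2 in siLarp1 at 48 h. At 24 h this ratio was 12.8, 14.9 and 12.9 in siCtl and 10.9, 18.8 and 13.7 in siLarp1, so that the groups overlapped there. No gene of 843 was called for abundance, with 20 higher and 33 lower at an unadjusted p under 0.05.

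**Figure D5:**
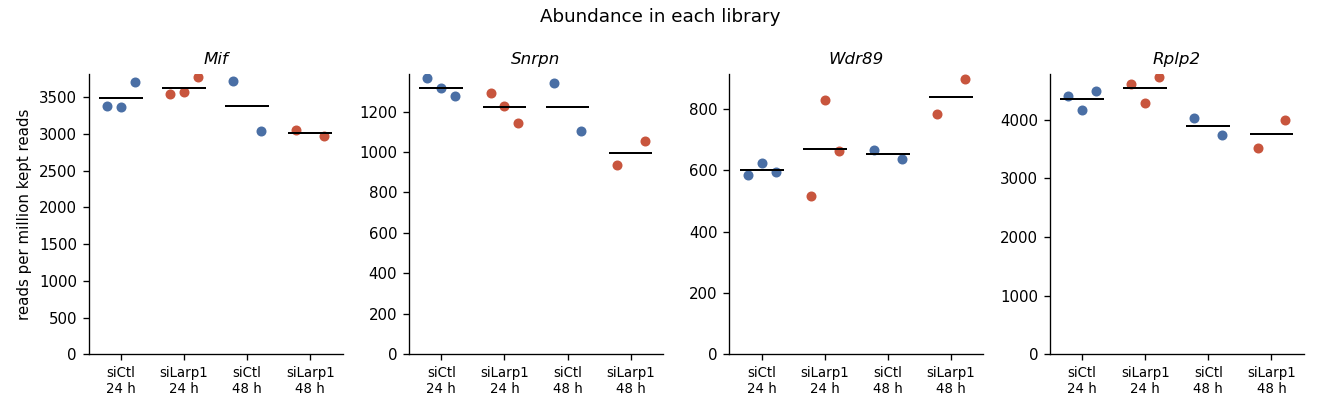
Reads per 1000000 kept reads (y axis, linear from 0, 1 scale per gene) in each library for Mif, Snrpn, Wdr89 and Rplp2, with group means as black lines, siCtl in blue and siLarp1 in red. At 48 h the Snrpn points of siLarp1 lie below those of siCtl and the Wdr89 points above, and at 24 h the groups overlap in all 4 genes.

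The relatives of the 3 genes gave few changes. Of 16 genes for Sm and LSm proteins, Snrpn itself included, all had reads and 11 could be tested for the share under 30 nt at 48 h. None passed in either direction, and the median fitted change was -0.15, against 0.49 over all genes. Snrpb, the nearest relative of Snrpn, was at 5.19% and 6.74% in siCtl libraries 24 and 25 and at 3.48% and 2.44% in siLarp1, a fitted change of -0.98 (SE 0.737, adjusted p = 0.594). That is the opposite direction to Snrpn, but neither passed. Of 7 other genes of the imprinted region, 5 had reads and none had enough to be tested. Snurf, whose protein is known to be encoded upstream of SmN on a shared mRNA, had no reads of its own. Of 7 genes for the relative, receptors and partners of Mif, Ddt and Cops5 had enough reads. Ddt (D-dopachrome tautomerase), the closest relative of Mif, had no short tail in any library at 48 h, in 28 to 34 reads each. So few reads allow shares of up to 8.82% to 10.7%, above those of Mif. At 24 h Ddt had 0 of 60, 1 of 88 and 2 of 104 in siCtl and 1 of 31, 1 of 28 and 1 of 38 in siLarp1. Its siLarp1 shares were thus higher without overlap, as in 6.22% of the 1945 genes, on 1 short tail a library. Cops5, a subunit of the COP9 signalosome that is known to bind Mif, was at 8.33% and 0% in siCtl libraries 24 and 25 and at 9.09% and 10.5% in siLarp1 at 48 h, on 113 reads in all. The siLarp1 libraries lay above the siCtl libraries without overlap, as in 27.0% of the 843 genes. The fitted change of 1.46 (SE 1.15, adjusted p = 0.59, quasi-likelihood logistic model) did not pass. Of 56 genes named as WD-repeat genes by number, only Wdr89 had 100 kept reads at 48 h.

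Among 440 genes with at least 30 kept reads in every library, the tail deciles of Mif were nearest to those of Rpl5, Rps4x and Tpi1, with a mean absolute difference of 3.25, 3.42 and 3.46 nt over 10 libraries, against a median of 9.14 nt over all genes. Those nearest to Snrpn were Rpl30, Chchd10 and Ubb (4.76, 4.96 and 5.20 nt). Those nearest to Wdr89 were Rpl36, Rpsa and Rplp1 (4.53, 4.72 and 4.77 nt), all ribosomal protein genes, whereas Rplp2 came as number 62 at 7.56 nt. In the share under 30 nt over the 10 libraries, Pearson's r was highest with Eef1d (0.92), Rpl7 (0.88) and Eif4ebp1 (0.87) for Mif. It was highest with Rpl19 (0.90), Rpl29 (0.88) and Rpl38 (0.85) for Snrpn, and with Psmb5 (0.89), Eif4ebp1 (0.88) and Eef1d (0.85) for Wdr89. These libraries share treatment, pool and depth, so the correlations are descriptions only.

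The annotated first bases of the transcripts were read for a C followed by at least 4 pyrimidines. None of the main transcripts of Mif, Snrpn, Wdr89 or Rplp2 began so, nor did most ribosomal protein genes: 11.4% of 79 did, and 4.41% of 839 tested genes. Most Rplp2 reads began far inside its annotated transcript, the median at base 294 of 964, so the annotated start was not where they began.

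Larp1 itself was lower in every siLarp1 library. It had 22, 29 and 36 reads in siCtl libraries 19, 21 and 22 and 4, 6 and 3 in siLarp1, and 19 and 22 against 3 and 3 at 48 h. Scaled to depth, these were 81.7 ± 5.04 and 32.4 ± 12.9 RPM at 24 h (SD, n = 3) and 146 ± 32.1 and 21.7 ± 4.51 RPM at 48 h (SD, n = 2). Kept reads ranged from 112720 to 423398 a library, and at 24 h every siLarp1 library was shallower than every siCtl library. Of 10 pluripotency markers 9 were found in every library, with a summed level of 3378 to 4658 RPM, mostly Pou5f1. The 5 neuronal markers summed to 196 to 369 RPM, mostly Stmn2 with Neurod1 at 0, and the 3 fibroblast markers to 0 to 14.5 RPM. The part of these levels in the results was not tested.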

How the data were processed

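Per the labels, poly(A) RNA of P19 cells was sequenced directly on nanopores. The authors aligned reads with minimap2 2.20 to mm10 transcripts (GENCODE), estimated tails with Nanopolish and assigned barcodes with Deeplexicon. The deposited table gave for each of 2652217 alignments a tail length in nt, a mapping quality score, a barcode confidence as a fraction and aligned positions in nt. Kept were alignments to mRNA with a tail estimate tagged PASS, without mitochondrial transcripts and pseudogenes. Libraries were put in groups by the condition given in the table. Multiple alignments concerned 0.693% of kept reads.

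Genes with at least 100 kept reads at 48 h were fitted. Tail classes were fitted with a quasi-likelihood logistic model with dispersions moderated by limma 3.58.1 (R 4.3.3) and not below 1, median tails and abundance (voom) with limma, all adjusted by Benjamini-Hochberg with a threshold of 0.05. Genes with no short tail in any library could not be fitted for that class. The same logistic model ordered transcripts at 24 h. Likeness of sequences was found with BLAST 2.17.0 on GENCODE M21 transcripts, whose IDs and spans matched the deposited ones. The scripts were tested on simulated data. Nothing states that libraries came from separate cultures beyond their replicate labels, so p-values measure at most the spread between these libraries. Where the dispersion of a tail class was at its lower limit of 1, p-values and intervals cover counting error of the reads only. This was so for the share under 30 nt of Mif, Snrpn and Rplp2 at 48 h. The members, lists and tests were chosen with earlier results of these data known. Named were the 3 genes, Larp1, genes of the lists past a test and the nearest relatives, the genes most alike in tails, and transcripts next to the 24 h threshold; Rplp2 was added after its likeness to Wdr89 was seen. Alternatives covered filters, quality tags, barcode confidence, alignments, class limits, models, scaling, depth, runs, a replicate block and leaving out each library; a mapping quality of at least 10 was added after seeing the data. The names of the genes called at 48 h are not reported here.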

Additional observations from a re-analysis of the deposited data

How the results depend on the processing

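In 177 fits of Mif, Snrpn and Wdr89 under alternatives at 48 h none passed, with a lowest adjusted p of 0.194, in a design of 2 against 2 libraries. The count of 4 genes with a changed share under 30 nt at 48 h changed with the settings. It was 39 with all quality tags, 25 with tails under 40 nt and 7 with reads of 1 alignment only. It was 0 without a filter, per transcript, with a barcode confidence of at least 0.9, a mapping quality of at least 10, tails under 20 nt, limma on log2 odds, equal depth and in each run alone, and 0 without any of the 4 libraries. For the 30- to 90-nt share, leaving out a library gave 0 to 16 genes, the latter without siLarp1 library 24, and for the median tail 0 to 1, the latter without siCtl library 25. For abundance the count was 17 without a filter and 1 with a mapping quality of at least 10.

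Library numbers were the same in both treatments, but they are not tied to the replicate labels. Deviations of same-numbered libraries correlated at 0.0184, 0.13 and 0.124 at 24 h and at 0.124 at 48 h. At 48 h, with 2 libraries a group, the other pairs were at -0.124 by construction. Each library at 24 h correlated best with its own number, a hint from the data only. Libraries 19, 21 and 22 also had barcodes 1, 2 and 3 in both treatments, so number and barcode cannot be told apart at 24 h. With the replicate block the counts were 0 for the share under 30 nt and 3 for abundance, and it changed no call of the 3 genes.

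Directions at 48 h that turned, all far from the threshold, were these. For the share under 30 nt, Mif was at -0.19 and Snrpn at -0.42 with tails under 20 nt, Wdr89 at -0.087 under 40 nt, Mif at -0.65 in the second run, and Wdr89 ranged from -0.79 to 1.82 when a library was left out. For the middle class, Snrpn was at 0.068 per transcript, 0.097 with the mapping quality minimum and 0.34 in the second run, Mif at -0.051 with confident barcodes and -0.26 in the second run, and without a library Mif ranged from -0.060 to 0.089 and Snrpn from -0.38 to 0.11. For the median tail, Snrpn was at -4.64 nt per transcript, -0.39 nt with confident barcodes, -6.75 nt with the mapping quality minimum and -0.021 on the mean log2 scale, and Mif at 0.050 nt with confident barcodes and 1.30 nt at equal depth. Without a library, Mif ranged from -2.91 to 1.64 nt and Snrpn from -4.97 to 6.51 nt.

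At 24 h the higher share under 30 nt in siLarp1 kept its direction in all 3 genes under all alternatives run. The genes were chosen by this share and the alternatives reuse the same reads, so the kept direction is no support. In percentage points the difference ranged without 1 library from 0.945 to 1.89 in Mif, 2.38 to 3.35 in Snrpn and 1.31 to 3.11 in Wdr89. It was 0.380, 0.115 and 0.321 under 20 nt, and 3.84 in Mif and 5.02 in Wdr89 under 40 nt. In Snrpn it was 2.01 with all quality tags and 3.91 on the main transcript. In Wdr89 it was 6.27 with the mapping quality minimum, which left 68 reads at 24 h. The only short tails among these were a tail of 27.0 nt in siLarp1 library 21 and a tail of 16.7 nt in siLarp1 library 22. The Snrpn middle class turned to 0.025 with all tags and 0.158 with reads of 1 alignment, and that of Wdr89 to -19.0 with the mapping quality minimum. Without 1 library, Snrpn ranged from -1.92 to 2.03 points in the middle class and from -5.77 to 1.52 nt in the median tail, and Wdr89 from -2.26 to 7.20 points in the middle class and from -11.3 to 145 RPM. The causes were not tested. Depth limits Wdr89 most, with 62 to 252 reads a library.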
